A study of Mus musculus with 36 samples.

Results

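The genes described here are 9 markers of the cells that build the enteric nervous system: the glial genes Gfap and S100b, the pan-neuronal genes Tubb3, Stmn2, Elavl4 and Uchl1, and the transmitter genes Nos1, Vip and Chat. The genes were given by symbol, and for each one every PAX6 or IgG peak whose centre lay in the gene body or within 100 kb of it was collected. They are 9 of 22380 protein-coding genes in the GENCODE M1 annotation of the mouse genome build mm9. A PAX6 peak was in reach of 3 of them, Tubb3, Stmn2 and Gfap, and of none of the other 6, and by the same rule 17.5% of protein-coding genes had one. All 3 peaks came from pool 2, where that share was 8.07%.

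Enteric precursor cells (EPCs) from the ganglionic gut of CD1 mice at postnatal day 7 were grown as neurosphere-like bodies (NLBs), floating aggregates that hold precursors and their progeny, in a medium with growth factors. Chromatin from these cells was immunoprecipitated with an antibody to PAX6 and sequenced (ChIP-seq), to find where this transcription factor sat on the genome. The labels describe 16 PAX6 libraries in 3 pools (4 in pool 1, 6 in pool 2 and 6 in pool 3), 16 input libraries of chromatin without immunoprecipitation, spread over the pools in the same way, and 4 libraries made with non-specific IgG, all in pool 1. The libraries of a pool were merged before peaks were called against input, so that each pool, and IgG, gave a single list. All groups share strain, age and culture, and no mutant, treated or aganglionic group is among them. Nothing in the sources states that the libraries came from separate cultures, the cells were a mixture, and the series holds no expression data, so whether a marker was expressed cannot be checked in these files. Each list is a single merged data set: no spread between libraries is known, no test between groups can be made, and the comparison of the 3 pools is the only view of repeatability. Sequencing depth is unknown from the lists, which hold 491, 1032 and 724 peaks in pools 1, 2 and 3 and 1007 peaks for IgG. The score of a peak is -10 times the log10 of the p-value given by the peak caller MACS, so that a higher score means a smaller p-value. Because scores rise with depth, they were ranked only within a list, and tied peaks took the rank of the first of them.

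The enteric nervous system descends from neural crest cells that colonise the gut and then become neurons or glia inside the ganglia. Pan-neuronal genes come on as a precursor leaves the cycle and extends processes, whereas the genes for transmitter enzymes and peptides separate inhibitory motor neurons, which relax gut muscle, from excitatory ones, which contract it. PAX6 is a transcription factor that binds DNA through both a paired domain and a homeodomain, known for its part in the development of the eye, the brain and the endocrine pancreas.

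The sequence under the 3 PAX6 peaks in reach of a marker is printed because the same feature runs through all of them. Each is the plus strand of mm9, 5′ to 3′, and capitals mark runs of alternating C and A, or of T and G on the other strand, of at least 20 bases. The Tubb3 peak is given whole, and of the longer Gfap and Stmn2 peaks the central 300 bases are given.
Gfap peak, pool 2, chr11:102686017-102686316: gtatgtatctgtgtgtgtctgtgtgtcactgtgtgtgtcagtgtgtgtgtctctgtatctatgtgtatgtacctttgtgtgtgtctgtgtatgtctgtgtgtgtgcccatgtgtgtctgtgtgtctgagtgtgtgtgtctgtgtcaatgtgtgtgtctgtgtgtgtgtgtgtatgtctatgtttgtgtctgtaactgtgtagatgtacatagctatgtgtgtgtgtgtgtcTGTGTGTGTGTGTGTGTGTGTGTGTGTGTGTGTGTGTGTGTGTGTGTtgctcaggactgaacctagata
Tubb3 peak, pool 2, chr8:125988380-125988651: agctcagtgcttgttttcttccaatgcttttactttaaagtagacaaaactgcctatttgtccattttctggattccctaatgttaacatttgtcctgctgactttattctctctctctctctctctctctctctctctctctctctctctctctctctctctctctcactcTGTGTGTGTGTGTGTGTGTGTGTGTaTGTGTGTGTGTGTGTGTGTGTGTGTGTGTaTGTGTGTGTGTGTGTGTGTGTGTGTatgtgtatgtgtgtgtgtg
Stmn2 peak, pool 2, chr3:8454155-8454454: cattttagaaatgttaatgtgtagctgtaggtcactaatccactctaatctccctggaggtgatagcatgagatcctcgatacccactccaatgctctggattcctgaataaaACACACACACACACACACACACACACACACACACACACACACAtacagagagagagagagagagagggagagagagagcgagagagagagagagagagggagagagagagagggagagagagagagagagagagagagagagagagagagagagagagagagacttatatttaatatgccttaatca
All 3 peaks held such a repeat. In the Gfap peak it was a single run of 47 bases at chr11:102686248-102686294, inside a longer stretch rich in TG, and it made up 8.80% of the 534 bp of the peak. In the Tubb3 peak there were 3 runs, of 25, 29 and 25 bases, each parted from the next by 1 other base, and together they covered 79 bases or 29.0% of the peak. The Stmn2 peak had 1 run of 43 bases at chr3:8454268-8454310, equal to 12.2% of its length. The Tubb3 and Stmn2 peaks also held a run of alternating C and T, or G and A, of 60 and 50 bases, a feature looked for only after the sequences had been seen. Such repeats were common throughout the lists. In windows that reach 150 bases to either side of the centre of each peak, a CA or TG run of at least 20 bases was present in 42.7%, 50.0% and 49.7% of the peaks of pools 1, 2 and 3, and in 53.9% of the IgG peaks. A CT or GA run of that length was rarer, at 7.77%, 9.14% and 5.90% of the PAX6 lists and 7.46% of the IgG list.

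A core of the paired domain site, TTCACGC, and a core for paired homeodomains, TAAT, 3 bases of any kind, then ATTA, were searched on both strands. Neither was found in the 3 peaks. Both were scarce in every list. TTCACGC was present in 1.02%, 0.197% and 0.140% of the windows of pools 1, 2 and 3 and in 0.795% of the IgG windows, and the homeodomain core in 1.43%, 0.885% and 0% of the PAX6 windows and 0.199% of the IgG windows. In the same windows the GC content was 44.9% at the Gfap peak, 42.2% at Tubb3 and 45.2% at Stmn2, and the median over pool 2 was 42.5%.

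Of the 9 markers, none had a peak of pool 1 in reach, 3 had a peak of pool 2, none had a peak of pool 3 and none had an IgG peak. Under the same rule 4.24% of protein-coding genes had a peak of pool 1 in reach, 8.07% a peak of pool 2, 6.83% a peak of pool 3 and 8.62% an IgG peak. With the 3 pools joined, 17.5% of protein-coding genes had a PAX6 peak in reach, against 33.3% of the markers, where 1 gene is worth 11.1 points. Gene length moves this share, since a longer gene has a wider reach. Among protein-coding genes under 20 kb, 14.6% had a PAX6 peak in reach, and 2 of the 5 markers of that length did, Gfap and Tubb3. Among those of 50 to 200 kb the share was 22.5%, and 1 of the 4 markers of that length had one, Stmn2. These length classes were chosen after the lengths of the markers were known. A peak inside the gene body was present in 3.11% of protein-coding genes and in no marker. With 9 genes and 1 list per pool, these counts describe the markers and were not tested.

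**Figure D1:**
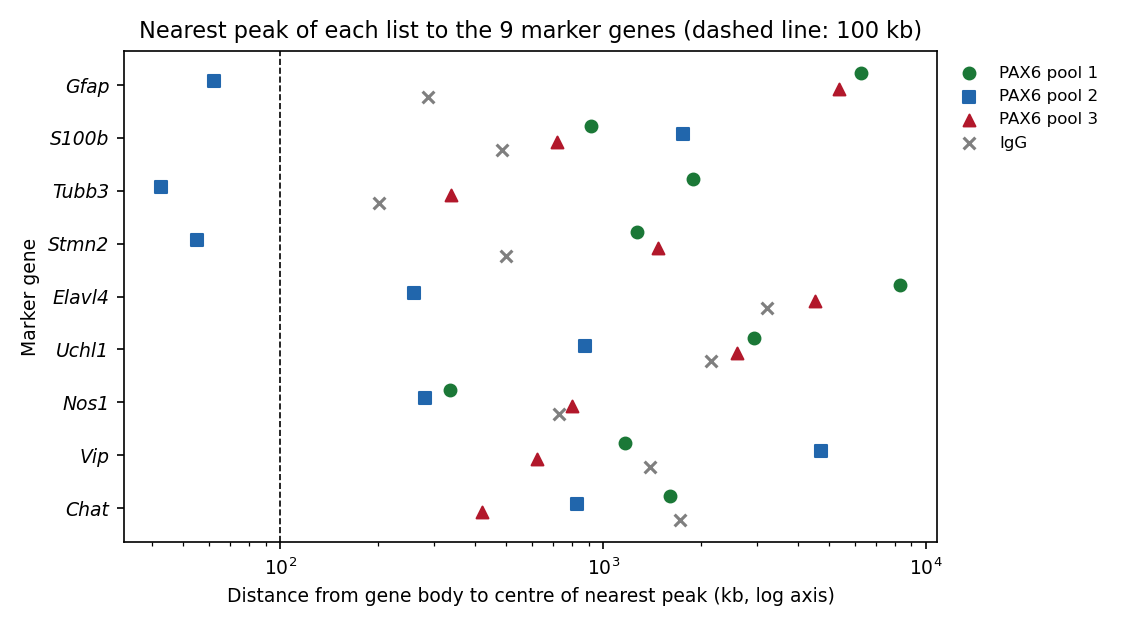
Distance in kb, on a log axis, from the body of each of the 9 marker genes to the centre of the nearest peak in each of the 4 lists (1 point per gene and list). Only the points of pool 2 at Gfap, Tubb3 and Stmn2, at 62.5, 42.6 and 55.2 kb, lie left of the dashed line at 100 kb.

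Both glial genes code for proteins used to stain enteric glia. Gfap encodes the glial fibrillary acidic protein, an intermediate filament of the glial cytoskeleton, and had 1 PAX6 peak in reach. S100b, which encodes a calcium-binding protein found through the cytoplasm of glia, had none.

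Gfap (ENSMUSG00000020932.8) lies at chr11:102748650-102762226 on the minus strand and spans 13.6 kb. Its peak, at chr11:102685900-102686433 in pool 2, was 62.5 kb downstream of the gene, between genes, with a score of 75.54, rank 378 of 1032 (the upper 36.6% of the list). The nearest peaks of pool 1 and pool 3 were 6265 and 5361 kb from Gfap, and the nearest IgG peak was 287 kb away, in an intron of Fmnl1, with a score of 99.39. So at this marker 1 pool had a peak nearby and the others had none for several megabases. The region is dense in genes. The peak had 8 protein-coding genes in its own reach, and 6 of them were closer to it than Gfap. The closest was Gjc1, which encodes the gap junction protein connexin 45, at 5.15 kb, followed by Higd1b at 10997 bp and Eftud2, a GTPase of the spliceosome, at 13.6 kb. By distance to start sites of protein-coding genes Gfap came 7th, and the closest start of any kind was that of the small RNA SNORA2, at 5.03 kb.

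S100b (ENSMUSG00000033208.7), a gene of 7.31 kb, lies at chr10:75716598-75723904 on the plus strand. Pool 1 had its nearest peak 914 kb away, pool 2 at 1761 kb and pool 3 at 718 kb. An IgG peak, at 484 kb, was closer than any of them, and S100b was the 1 marker for which this was so. The pool 3 peak, with a score of 107.53 and rank 335 of 724, lay between genes 17.7 kb from the start of Pcbp3, which encodes an RNA-binding protein. The pool 1 peak had a score of 59.63 and lay 8.34 kb from the start of the collagen gene Col18a1, and the pool 2 peak, with a score of 132.45, was in an intron of Pcdh15, a protocadherin gene. The IgG peak, of score 66.37, was 18981 bp from the start of Col6a1, another collagen gene.

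**Figure D2:**
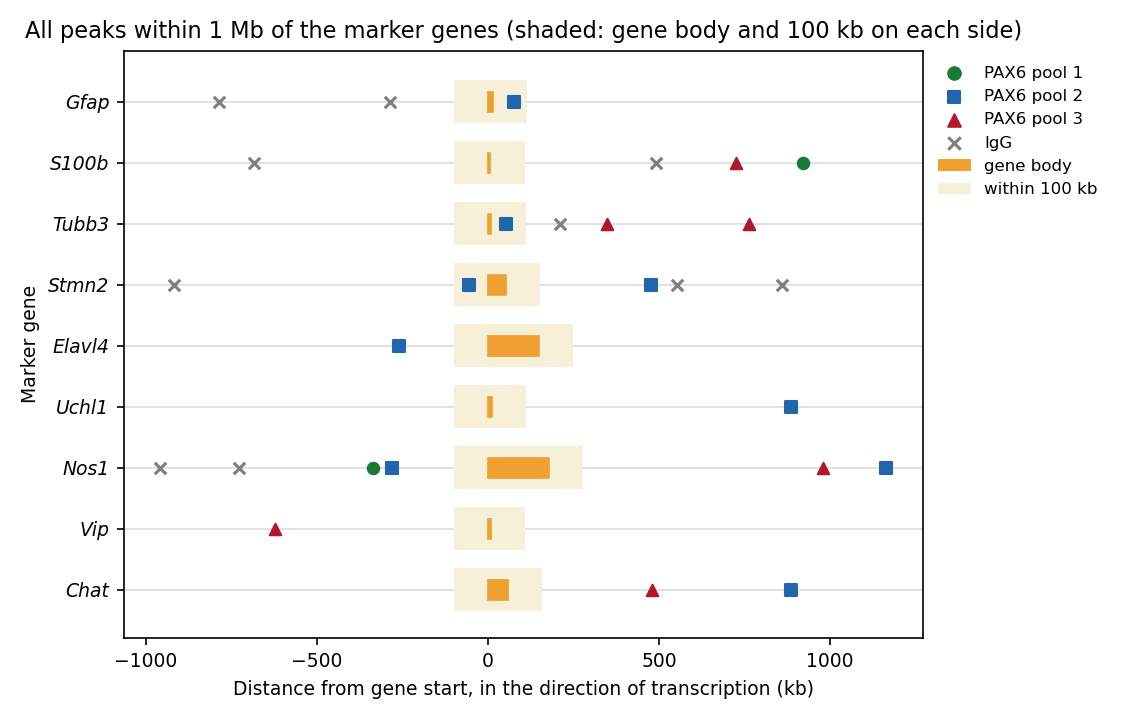
All peaks within 1 Mb of each marker gene, placed by distance in kb from the gene's start in the direction of transcription, 1 line per gene. Bars show the gene body, the pale boxes the body with 100 kb on each side, and the markers the 4 lists. The pale boxes hold 3 PAX6 peaks in all, of pool 2, beside Gfap, Tubb3 and Stmn2.

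Among the pan-neuronal genes, Tubb3 and Stmn2 had a PAX6 peak in reach and Elavl4 and Uchl1 did not. Both genes with a peak code for proteins of the microtubule system of young neurons. Tubb3 encodes class III beta-tubulin, the tubulin that marks neurons from an early stage, and stathmin 2, the product of Stmn2, binds tubulin dimers in growth cones.

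Tubb3 (ENSMUSG00000062380.3) lies at chr8:125935324-125945915 on the plus strand and spans 10.6 kb. Its peak, at chr8:125988380-125988651 in pool 2, was 42.6 kb downstream, the shortest distance among the 9 markers. The score was 115.84, rank 78 of 1032 (the upper 7.56% of the list), and 17 peaks of the list shared that score. This was the highest ranked of the 3 marker peaks. Pool 3 had its nearest peak 339 kb from Tubb3, with a score of 180.60 and rank 62 of 724. The pool 1 peak was 1894 kb away with a score of 63.53, and the IgG peak was 201 kb away with a score of 64.91. The peaks of pools 2 and 3 were 296 kb apart, with the IgG peak between them, 159 kb from the pool 2 peak.

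The Tubb3 peak also stood in a crowded region, with 9 protein-coding genes in reach. It lay in an intron of Gm20388, a model annotated as protein-coding that spans 4435 kb (chr8:122434741-126869622) and also covers the peaks of pools 1 and 3 and of IgG. Def8 ended 1.34 kb from the peak, Afg3l1, which encodes a subunit of a mitochondrial protease, was 13.3 kb away, and Dbndd1 was 40.1 kb away. Tubb3 was next, and by start sites of protein-coding genes it came 4th. The small RNA SNORA63 had the closest start of any kind, at 6.77 kb.

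Stmn2 (ENSMUSG00000027500.8), at chr3:8509527-8561604 on the plus strand, spans 52.1 kb. Its peak, at chr3:8454128-8454480 in pool 2, was 55.2 kb upstream of the start site, between genes. Here the surroundings were the opposite of those of Tubb3 and Gfap: Stmn2 was the only protein-coding gene in reach of the peak and its closest protein-coding start, and no other protein-coding gene lay within 100 kb of Stmn2. The closest start of any kind was that of a U6 small nuclear RNA, at 25.1 kb. The score was 68.98, which was also the median score of pool 2. The peak ranked 458 of 1032 (44.4%), the rank of the first of the tied peaks. In all, 103 peaks, 9.98% of the list, had exactly this score, the most frequent value in pool 2. Among the tied peaks with a full window, 64 of 101 (63.4%) held a CA or TG run of at least 20 bases, beside 8 of 16 (50.0%) of those tied with the Tubb3 peak and 50.0% of all windows of pool 2. Pool 1 had its nearest peak 1268 kb from Stmn2, pool 3 at 1473 kb and IgG at 500 kb, so no other list had a peak at this locus. Stmn2 was also the 1 marker with more than 1 peak of pool 2 within 500 kb, the next one being 532 kb from the first, on the far side of the gene.

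**Figure D3:**
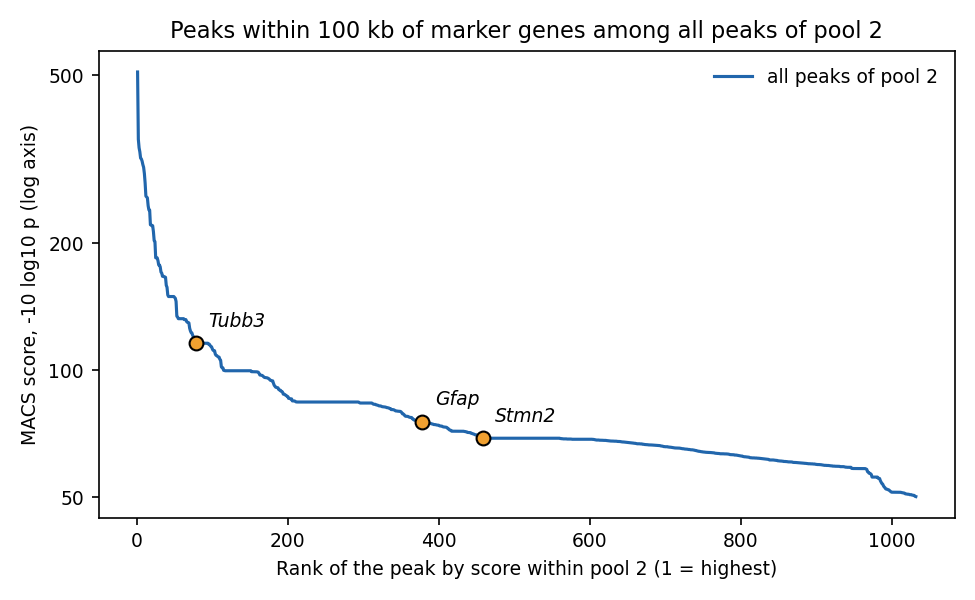
MACS score (-10 times log10 p, log axis) of all 1032 peaks of pool 2 against their rank, with the 3 peaks in reach of a marker gene as points. Tubb3 stands at rank 78, Gfap at 378 and Stmn2 at 458, and the flat steps are groups of peaks with identical scores.

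Elavl4 encodes HuD, an RNA-binding protein that stabilises neuronal transcripts and, with its relatives, is the target of the Hu antibodies used to count enteric neurons. Elavl4 (ENSMUSG00000028546.11) is a long gene of 148 kb at chr4:109876327-110024514 on the minus strand, with 9 annotated start sites. It was the marker next outside the limit of 100 kb: its closest PAX6 peak, of pool 2, was 259 kb upstream, in an intron of Agbl4, which encodes a carboxypeptidase that trims glutamates from tubulin. That peak had a score of 84.05, rank 212 of 1032, a value held by 82 peaks of the list, and no CA or TG run of 20 bases. The other lists were far off: pool 1 came no closer than 8312 kb, pool 3 no closer than 4519 kb and IgG no closer than 3207 kb. The distance in pool 1 was the longest of any marker in any list. The pool 3 peak stood high in its list, with a score of 224.76 and rank 23 of 724.

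Uchl1 encodes the ubiquitin hydrolase known to histologists as PGP9.5, an abundant protein of neuronal cytoplasm. Uchl1 (ENSMUSG00000029223.8), of 11.1 kb, lies at chr5:67067360-67078472 on the plus strand. It was the marker farthest from any PAX6 peak. The closest, in pool 2, was 875 kb downstream, between genes, 45.7 kb from the start of Shisa3, with a score of 68.17 and rank 618 of 1032. The nearest peaks of pool 1, pool 3 and IgG were 2934, 2586 and 2149 kb away. The pool 1 peak, of score 52.49, was the only one of the 27 nearest PAX6 peaks to hold the homeodomain core. The pool 3 peak, of score 56.88, was in an intron of Kctd8, which encodes an auxiliary subunit of GABA-B receptors.

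None of the transmitter genes had a PAX6 peak in reach. Nos1 encodes neuronal nitric oxide synthase, which makes the gas by which inhibitory motor neurons relax gut muscle, Vip encodes the peptide that many of these neurons release as well, and Chat encodes the enzyme that makes acetylcholine in excitatory motor neurons.

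Nos1 (ENSMUSG00000029361.10), at chr5:118231041-118408849 on the plus strand, is the longest marker at 178 kb and has 7 annotated start sites. Its closest peaks came from different pools and lay side by side, at 279 kb upstream in pool 2 (score 63.85, rank 756 of 1032) and 334 kb upstream in pool 1 (score 52.12, rank 445 of 491). Both were in introns of Ksr2, which encodes a scaffold of the RAF and MEK kinases, and their centres were 55.0 kb apart. This was the closest approach between the nearest peaks of different pools at any marker. At the other 8 markers the corresponding distance was at least 195 kb, the value at S100b, so the nearest peaks of different pools overlapped at no marker. Both Ksr2 peaks ranked low in their lists, and neither held a CA or TG run of 20 bases. The nearest peak of pool 3 was 800 kb downstream, in an intron of the Mediator gene Med13l, and ranked 53 of 724 with a score of 197.78. The nearest IgG peak was 728 kb away with a score of 59.48.

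Vip (ENSMUSG00000019772.4), at chr10:4698927-4707323 on the minus strand, spans 8.40 kb. Its closest PAX6 peak was in pool 3, 622 kb upstream, between genes, 52.2 kb from the start of Syne1, which encodes a protein that ties the nucleus to the cytoskeleton. It had a score of 138.11, rank 158 of 724, in a group of 29 peaks with that score, and it held a CA or TG run of 36 bases. The nearest peak of pool 1, of score 53.40, was 1167 kb downstream in an intron of Oprm1, the gene of the mu opioid receptor. The nearest peak of pool 2 was 4727 kb away with a score of 59.79, the longest distance that pool 2 showed at a marker, and the nearest IgG peak was 1398 kb away with a score of 66.83.

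Chat (ENSMUSG00000021919.6), of 57.7 kb, lies at chr14:33221389-33279095 on the minus strand. Its closest PAX6 peak was 422 kb downstream in pool 3, between genes, with a score of 121.38 and rank 213 of 724, and 3 CA or TG runs in its window covered 99 bases. The nearest peak of pool 2 was 827 kb downstream and lay in overlapping introns of Hacl1 and Colq, 3.83 kb from the start of Colq, which encodes the collagen tail that anchors acetylcholinesterase at synapses. Its score was 68.59, rank 577 of 1032. The nearest peak of pool 1 was 1614 kb away, 6.41 kb from the start of the annexin gene Anxa8, with a score of 64.45, and the nearest IgG peak, of score 82.57, was 1724 kb away.

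Ordered by the closest PAX6 peak of any pool, the markers ran Tubb3 (42.6 kb), Stmn2 (55.2 kb), Gfap (62.5 kb), Elavl4 (259 kb), Nos1 (279 kb), Chat (422 kb), Vip (622 kb), S100b (718 kb) and Uchl1 (875 kb). The limit of 100 kb therefore fell in a gap between 62.5 and 259 kb. With 1 list per pool these distances have no known error, so the order of neighbours such as Tubb3, Stmn2 and Gfap, or Elavl4 and Nos1, cannot be set against a spread. The closest peak came from pool 2 for 6 markers, from pool 3 for 3 and from pool 1 for none. The next shares are of the 22350 protein-coding genes on chromosomes that hold a peak. Of these, 9.33% had a PAX6 peak closer than that of Tubb3, 11.1% closer than that of Stmn2 and 12.2% closer than that of Gfap. The share was 36.4% for Elavl4, 38.5% for Nos1, 50.5% for Chat, 63.1% for Vip, 67.9% for S100b and 74.5% for Uchl1, so the markers were spread over most of the range of protein-coding genes.

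**Figure D4:**
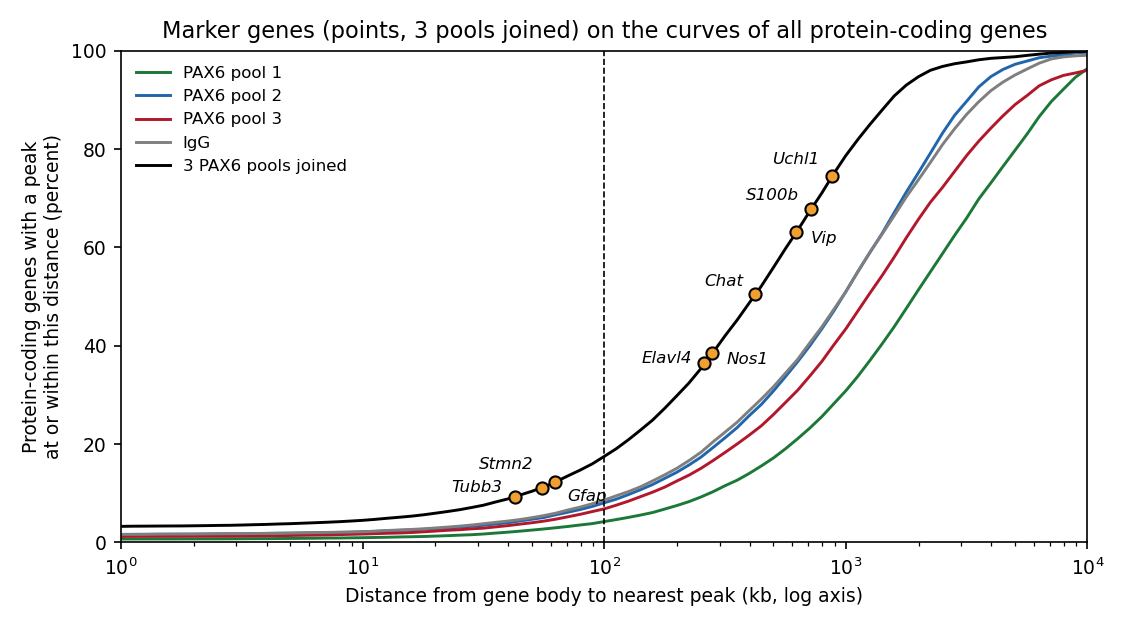
Percent of protein-coding genes with a peak at or within the distance on the x axis (kb, log scale), as a line for each of the 4 lists and for the 3 PAX6 pools joined, with the 9 marker genes as points on the joined line at their closest PAX6 peak. The points run from 9.33% at Tubb3 to 74.5% at Uchl1, and the lines of pool 2 and IgG lie close together.

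The median distance of the 9 markers to the nearest peak was 1614, 279 and 800 kb for pools 1, 2 and 3 and 728 kb for IgG. Over the 22350 protein-coding genes on chromosomes that hold a peak the medians were 1908, 968, 1226 and 967 kb. The markers that were closer than the protein-coding median numbered 6 in pool 1, 7 in pool 2, 5 in pool 3 and 5 in the IgG list. With the pools joined, the medians were 279 kb for the markers and 415 kb for protein-coding genes, and 5 markers were closer than the latter. Within 500 kb of the 9 genes, a span of 9.49 Mb, there were 1, 6 and 2 PAX6 peaks of pools 1, 2 and 3 and 4 IgG peaks. These are 0.105, 0.632, 0.211 and 0.422 peaks per Mb, beside 0.185, 0.386, 0.270 and 0.381 over chromosomes 1 to 19 and X. At 1 Mb, a span of 18.5 Mb, the counts were 2, 9, 6 and 10, or 0.108, 0.487, 0.325 and 0.541 peaks per Mb. At both spans the peaks of pool 2 and of IgG were denser around the markers than over the chromosomes, and those of pool 1 were sparser. Pool 3 was sparser at 500 kb and denser at 1 Mb. These densities rest on few peaks and were not tested. IgG peaks were within 500 kb of 4 of the 9 markers, Gfap, S100b, Tubb3 and Stmn2. Of all protein-coding genes, 31.7% had an IgG peak within 501187 bp.

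The nearest peaks of the 9 markers in the 3 pools, 27 in all, were described by features that the choice of genes did not use. In all, 13 lay in introns, 14 between genes and none in an exon. The intron count includes the nearest Tubb3 peaks of all 3 pools, which lay in the model Gm20388. Such places were not counted for the whole lists. None of the 27 overlapped an IgG peak. In the whole lists of pools 1, 2 and 3 such an overlap was also uncommon, at 38 of 491, 17 of 1032 and 27 of 724 peaks. A CA or TG run of at least 20 bases was present in 4 of the 9 peaks of pool 1, 5 of 9 in pool 2 and 5 of 9 in pool 3, shares near those of the whole lists. It was present in 9 of the 9 nearest IgG peaks, beside 53.9% of the whole IgG list. The paired domain core was in none of the 27 and the homeodomain core in 1. A marker was the closest protein-coding start of 1 of them, the Stmn2 peak of pool 2, and the closest start of any kind of none.

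Further genes were looked up as well, by the same rule. The lists held enteric glial and neuronal genes, paralogs, receptors and partners of the markers, and genes of other cell types the cultures could hold. Of 111 further genes, 110 had a match in the annotation, and 21 of these (19.1%) had a PAX6 peak in reach, near the 17.5% of all protein-coding genes. A peak of the single IgG list was in reach of 8, beside 8.62% of all protein-coding genes. The counts per list are small and were not tested.

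Among the glial genes, 1 of 14 (7.14%) had a PAX6 peak in reach, Gja1, the connexin 43 gene. Of the pan-neuronal genes, 7 of 20 (35.0%) had one, beside 17.5% of all protein-coding genes: Elavl2, Stmn4, Syt1, Nefh, Prph, Rbfox3 and Ncam1. Longer genes have a wider reach, and Syt1, Rbfox3, Ncam1 and Elavl2 span 513, 422, 297 and 149 kb. By contrast, Stmn4, Nefh and Prph span 17.4, 9.31 and 3.81 kb, and Map2, of 267 kb, had no peak in reach. The part of gene length in this share was not tested. The Prph peak, at 98.2 kb, lay just inside the limit. In the same list an IgG peak was in reach of 2, beside 8.62% of all protein-coding genes. The peaks of Syt1 and Ncam1 lay inside the gene. Syt1, which encodes the calcium sensor of synaptic vesicles, had a pool 2 peak at chr10:108363477-108363964 in an intron, 82.4 kb from its nearest start site, with a score of 108.26 and rank 106 of 1032. Ncam1, the gene of a neural cell adhesion molecule, had a pool 2 peak at chr9:49362083-49362619 in an intron, 11.1 kb from a start site, with a score of 89.75 and rank 189.

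Of the genes that mark neurons by transmitter, none of the 5 genes that go with Nos1 and Vip (Gal, Npy, Adcyap1, Etv1 and Cartpt) had a PAX6 peak in reach, beside 17.5% of all protein-coding genes. Their closest peaks were 138 kb or more away. Of the 7 matched genes that go with Chat, 3 (42.9%, beside 17.5% of all protein-coding genes) had one, Tac1, Penk and Bnc2. The Tac1 peak, of pool 3 at 97.7 kb, lay just inside the limit, and an IgG peak was closer to that gene. The Penk peak, of pool 2, was 84.5 kb away. Bnc2, which encodes a zinc finger protein, was the only gene among those listed with peaks of more than 1 pool inside its body. Its pool 2 peak, at chr4:83964967-83965427, had a score of 79.86 and rank 348 of 1032, and its pool 3 peak, at chr4:84119465-84119790, had a score of 92.97 and rank 391 of 724. The peaks were in introns of a gene of 403 kb and did not overlap. Among 12 genes of sensory, serotonergic and dopaminergic neurons, 1 (8.33%, beside 17.5% of all protein-coding genes) had a PAX6 peak in reach, the dopamine transporter gene Slc6a3. Differences between these small lists were not tested. An IgG peak was also in reach of Slc6a3. Genes other than Syt1, Ncam1 and Bnc2 are named in these lists only to account for the counts, after their values were seen.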

How the data were processed

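Peak lists of PAX6 ChIP-seq in mouse NLBs were used: 1 for each of 3 pools and 1 for IgG. Per pool, libraries were pooled by the authors, aligned with Bowtie (build mm9) and passed to MACS. Versions of both tools are not given in the sources used here. As the authors' score, every peak carries -10 times the log10 of its p-value, and the depth behind it is unknown. The paper describes taking overlapping IgG peaks out of its analysis. The deposited PAX6 lists of pools 1, 2 and 3, used here as they are, still hold 38, 17 and 27 peaks that overlap an IgG peak. Reads and input libraries were not used here.

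Peaks were placed by their centre on GENCODE M1 (mm9), with Python 3.11.15, numpy 2.4.6 and pysam 0.24.0 (plots: matplotlib 3.10.9), and called in reach in a gene body or within 100 kb of it. Overlap meant at least 1 bp. The scripts were tested on simulated data. The 9 members and the further lists were chosen with earlier results of these data known. Named beside the members were genes that hold, or whose start is closest to, a described peak, and listed genes with a PAX6 peak in the body or peaks of at least 2 pools. Genes outside this rule, such as other neighbours of the Gfap and Tubb3 peaks and the listed genes behind a count, were named after their values were seen. Slc18a3 had no match in the annotation, and Map2, Tubb4a and Tubb4b were matched under older symbols. Alternatives were limits of 50 and 200 kb, start sites in place of bodies, any base of a peak, scores of 70 or 100 and above, removal of peaks that overlap IgG, coding transcripts, each pool left out, all genes as background and, added after seeing the data, the closest start among protein-coding genes. No test was made, since each pool gives 1 list.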

Additional observations from a re-analysis of the deposited data

How the results depend on the processing

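The count of markers with a PAX6 peak in reach, 3 of 9 from 3 peaks, was the same with a limit of 200 kb, start sites, any base of the peak, peaks overlapping IgG removed or coding transcripts. It fell to 1, Tubb3, for markers, peaks and pool 2 alike, with a limit of 50 kb and again with scores of at least 100, and to 2, Gfap and Tubb3, with scores of at least 70. The share of protein-coding genes moved with the limit as well. Within 199526 bp it was 29.8%, beside 33.3% of the markers, and within 50119 bp 10.4%, beside 11.1%. Leaving out each pool in turn gave 0 to 3 markers and 0 to 3 peaks, 0 without pool 2. The counts of 0 for pool 1, pool 3 and IgG were the same under every alternative run for them. Over all annotated genes, 16.2% had a PAX6 peak in reach, against 17.5% of protein-coding genes. No marker was the closest start of a peak in reach, but 1, Stmn2, was when only protein-coding starts counted, an alternative chosen after seeing the data. No paired analysis was possible because the libraries of each pool were merged into 1 list. Depth is unknown, so a peak missing from a list may be one that this depth could not show.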

Other observations

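Among 31 paralogs of the markers, 9 (29.0%) had a PAX6 peak in reach, beside 17.5% of all protein-coding genes: Stmn4, Uchl5, Elavl2, Tubb4b, S100a1, S100a4, S100a6, Prph and Crat. Of these, S100a1, S100a4 and S100a6 lie in 1 cluster of calcium-binding protein genes and shared 1 peak of pool 2, at 38.9, 50.4 and 59.6 kb. Elavl2, a neuronal relative of Elavl4, had a pool 1 peak at 24.6 kb, and Stmn4, a relative of Stmn2, a pool 3 peak at 46.9 kb. These genes were named after their values were seen. The lists share genes: Elavl2, Stmn4 and Prph were also among the pan-neuronal genes with a peak, so their peaks were counted in both. Of 15 receptor and partner genes of the markers, 1 (6.67%) had a PAX6 peak in reach, beside 17.5% of all protein-coding genes. This was Prkg1, the kinase that nitric oxide activates through cyclic GMP, a gene of 1196 kb with 1 intronic peak of pool 3 (score 107.59) and 2 intronic IgG peaks (scores 85.85 and 59.49). The VIP receptor genes Vipr1 and Vipr2, and Adcyap1r1 of the same list, had none, and their closest PAX6 peaks were 362, 1159 and 367 kb away.

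Genes of smooth muscle, fibroblasts, interstitial cells of Cajal, endothelium, macrophages and epithelium were counted as well, and 2 of 15 (13.3%, beside 17.5% of all protein-coding genes) had a PAX6 peak in reach, Csf1r of macrophages and Cdx2 of intestinal epithelium. Cdx2 was the only gene of these lists outside the neuronal ones with peaks of more than 1 pool in reach, at 40045 bp in pool 2 (score 57.32) and 88.7 kb in pool 1 (score 53.70). Both lay in introns of Flt3, and the pool 2 peak overlapped an IgG peak of score 63.84.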
